A study of Mus musculus with 6 samples.

Results

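Serpins and serine proteases were taken from the array as every probe set whose platform annotation names exactly 1 gene with a symbol of these families. The families are serpins of clades A to I, Prss and Tmprss proteases, kallikreins (Klk), Htra proteases, the Spint inhibitors, matriptase (St14), the plasminogen activators Plau and Plat, and the urokinase receptor Plaur. Serpinh1 and Prss30 were left out by the rule. This gave 80 genes on 107 probe sets, out of 12393 genes on 20380 probe sets that name a single gene. Genes entered by name and not by a cut on their values, although the families were chosen with earlier results of these data known.

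Tumor RNA was hybridised from 3 duodenal and 3 cecal tumors, each of a different mouse, with 1 array per tumor. All mice were Rb1 deficient, that is, short of the retinoblastoma tumor suppressor, and carried Apc1638N, a mutant form of Apc that predisposes to intestinal tumors. Thus both groups share these changes, and no tumor with intact Rb1 and no normal tissue was analysed here. Per the labels, some duodenal samples may hold pyloric tumor tissue. The sources used here state neither strain and age nor how Rb1 was removed. Values are MAS5 probe set intensities on a linear scale, and the number of arrays limits their precision.

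Serine proteases cut proteins with an active-site serine, and many are made as inactive precursors that another protease switches on. Serpins are inhibitors that present a loop as bait, are cut by the protease and trap it in a covalent complex, although some members inhibit nothing. Kunitz inhibitors such as Spint1 and Spint2 block the active site reversibly. In intestinal epithelium, membrane-anchored proteases and their Kunitz inhibitors are known for keeping the barrier, clade B serpins act mainly inside cells, and enteropeptidase (Tmprss15) of the duodenal brush border activates pancreatic trypsinogen.

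Of the 80 genes, 25 had a probe set bright enough to be tested, that is, brighter than the 40th percentile of all probe sets (92.4 to 100.6 across the arrays) in 3 or more tumors. Each gene was represented by its brightest tested probe set. Across the whole array 10.4% of 8129 tested genes differed between the sites (limma, Benjamini-Hochberg adjusted p under 0.05), 5.70% higher and 4.75% lower in cecal tumors. Among the 25 serpin and protease genes 7 differed, or 28.0%, which is a description and not a test of the list. The 7 include Serpini1, tested only through the duodenal tumors, and Prss16, for which the cecal tumors alone met the filter. In cecal tumors 5 were higher, the proteases Prss22 and Prss16 and the clade B serpins Serpinb1a, Serpinb5 and Serpinb6a. The 2 that were lower were Plat, the tissue-type plasminogen activator, and Serpini1, the serpin that inhibits it. The median log2 fold, cecal minus duodenal, was 0.16 over the 25 genes and -0.05 over all tested genes. Values of the sites did not overlap for 12 of the 25 genes (48.0%), against 31.3% of all tested genes.

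With the replicate number as a block, 8 of the 25 genes were higher in cecal tumors and 2 lower, against 12.7% of all tested genes called in either direction. The added calls were Prss32 (limma adjusted p = 0.00412), Serpina3n (0.0189) and Spint1 (0.0460). Leaving out 1 array at a time gave 2 to 4 genes higher and 0 or 1 lower. The fewest higher came without cecal tumor 2, and 0 were lower without cecal tumor 1 or duodenal tumor 3. Some of these calls were new. Without duodenal tumor 2 the 1 lower gene was Prss8, and without duodenal tumor 1 the 4 higher genes included Prss32. The calls of Prss22 and Serpinb1a held in 6 of 6 such fits.

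**Figure D1:**
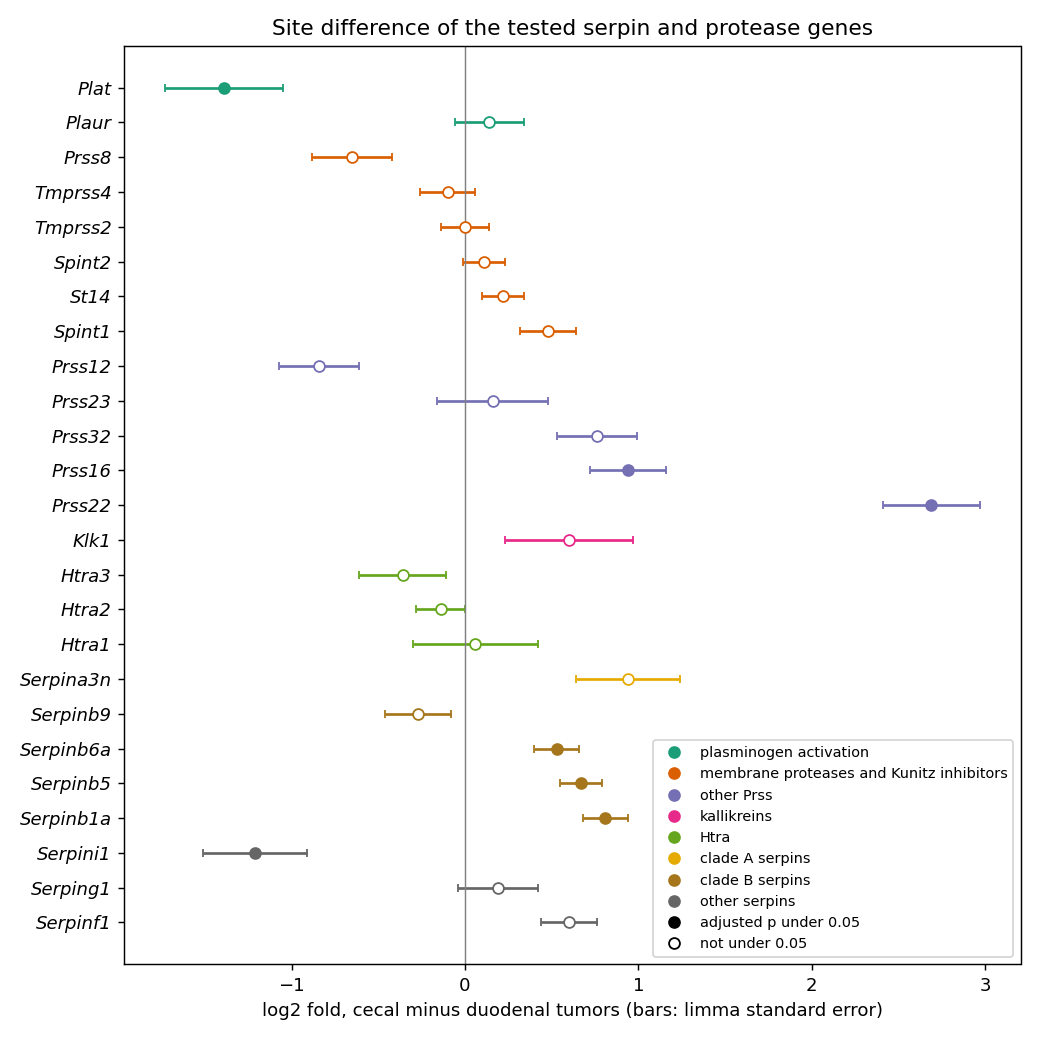
Log2 fold of the 25 tested genes, cecal minus duodenal tumors, grouped by role (x axis; bars are the limma standard error; filled points passed at an adjusted p under 0.05). Prss22 lies furthest to the right at 2.69, and Plat at -1.39 and Serpini1 at -1.21 lie furthest to the left.

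RefSeq promoters, from 250 bases before to 50 after a gene's start (300 bases, build GRCm38.p6), were held for 66 of the 80 genes. Those of 4 genes with a probe set that differed between the sites are shown because their expression separates the sites. Capitals mark the AP-1 motif TGANTCA, and the other motifs sought were the CDX-type TTTATG, the E2F motif TTTNGCGC and the TATA box TATAAA, each on both strands. Serpinb5 (chr1:106860925-106861224, plus strand), Serpinb6a (chr13:34002745-34003044, minus strand), Prss32 (chr17:23853522-23853821, plus strand) and Serpini1 (chr3:75557243-75557542, plus strand) read 5′ to 3′ as follows.
Serpinb5: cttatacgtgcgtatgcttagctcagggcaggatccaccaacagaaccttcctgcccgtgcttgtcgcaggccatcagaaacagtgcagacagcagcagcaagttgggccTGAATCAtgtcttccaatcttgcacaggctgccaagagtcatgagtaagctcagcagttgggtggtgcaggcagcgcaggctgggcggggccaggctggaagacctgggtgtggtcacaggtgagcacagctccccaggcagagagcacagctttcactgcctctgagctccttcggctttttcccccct
Serpinb6a: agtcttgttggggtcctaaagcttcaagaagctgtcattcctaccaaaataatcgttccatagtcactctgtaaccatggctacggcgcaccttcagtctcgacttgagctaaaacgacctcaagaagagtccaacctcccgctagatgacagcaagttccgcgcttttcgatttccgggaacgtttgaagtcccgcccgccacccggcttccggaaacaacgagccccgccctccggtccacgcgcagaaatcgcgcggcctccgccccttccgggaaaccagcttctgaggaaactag
Prss32: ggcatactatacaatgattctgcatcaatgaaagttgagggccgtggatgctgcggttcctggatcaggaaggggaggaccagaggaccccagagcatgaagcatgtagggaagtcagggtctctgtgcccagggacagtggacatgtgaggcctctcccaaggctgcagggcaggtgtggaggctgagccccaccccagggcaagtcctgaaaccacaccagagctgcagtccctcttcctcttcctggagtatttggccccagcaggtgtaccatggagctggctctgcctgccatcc
Serpini1: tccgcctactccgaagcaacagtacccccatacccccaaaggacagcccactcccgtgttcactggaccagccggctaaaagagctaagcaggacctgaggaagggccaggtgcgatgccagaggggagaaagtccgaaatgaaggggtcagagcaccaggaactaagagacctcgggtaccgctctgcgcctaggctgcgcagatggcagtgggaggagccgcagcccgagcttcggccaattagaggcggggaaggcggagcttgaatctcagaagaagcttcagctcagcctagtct
The only match was the AP-1 motif of Serpinb5, which begins 140 bases before the start, so these 4 windows share no motif of the 4 sought. AP-1 motifs occurred in 7.81% of all 32851 promoters of this length, CDX-type motifs in 11.9%, TATA boxes in 13.6% and E2F motifs in 1.38%. Over the 79 promoters of the 66 genes, 16 held an AP-1 motif, 10 a CDX-type motif, 11 a TATA box and 0 an E2F motif. Windows of nearby starts overlap, as for Prss23, Serpinb2 and Tmprss5, and so count the same AP-1 motif more than once. The counts are therefore no result about the members. The Serpinb6a window shown held 25 CpG dinucleotides and that of Serpini1 15, whereas that of Serpinb5 held 7 and that of Prss32 held 2 (median of all promoters 7). A second start of Serpinb6a (chr13:33936034-33936333, minus strand), not printed, had 5 CpG dinucleotides and none of the motifs.

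The plasminogen system turns plasminogen into plasmin, which dissolves fibrin and opens the matrix around cells. Plat (probe set 1415806_at), which starts this step, had intensities of 1406, 3455 and 2166 in duodenal tumors 1 to 3 and 676.9, 1224 and 683.5 in cecal tumors 1 to 3. Each duodenal tumor was above each cecal tumor, and tumor 2 was the highest within both sites. Plat was thus lower at the cecal site, with a log2 fold of -1.39 ± 0.34 (SE) or 2.62 times (limma adjusted p = 0.0405). With the replicate block the adjusted p was 0.00180. The call was lost without cecal tumor 1 (limma adjusted p = 0.145), cecal tumor 3 (0.0978), duodenal tumor 2 (0.0752) or duodenal tumor 3 (0.103), and also with array weights (0.109), no filter (0.0626) or no intensity trend (0.0530).

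Serpini1 (1416702_at), neuroserpin, is known as an inhibitor of tissue-type plasminogen activator in the nervous system. It had 113.4, 195.1 and 158.1 in the duodenal and 36.3, 53.8 and 89.0 in the cecal tumors. It was below the 40th percentile in all 3 cecal tumors, and passed the filter only through the duodenal ones, so the direction largely follows from the filter. The level was at least 1.58 times higher in duodenal tumors, the duodenal mean log2 intensity being set against the arrays' 40th percentile (fitted log2 fold -1.21 ± 0.30 SE, limma adjusted p = 0.0437). The call held without cecal tumor 3 (0.0223) and was lost without any other single array (0.0535 to 0.127), as well as with quantile normalization (0.0541) or no filter (0.0711). A second Serpini1 probe set, with 52.8, 50.2 and 104.4 against 25.9, 37.7 and 74.0, was too dim to be tested.

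Plaur, the cell-surface receptor of urokinase, had 715.4, 569.3 and 498.3 in the duodenal and 722.5, 757.7 and 495.9 in the cecal tumors. These ranges overlap, and its log2 fold was 0.14 with a 95% interval from -0.33 to 0.60 (limma adjusted p = 0.745). Urokinase itself (Plau) stayed at or below 56.4 on all arrays, under the level for testing. Serpinb2 and Serpinf2, inhibitors of urokinase and of plasmin, and Serpina5, the protein C inhibitor, were also too dim, with a highest value of 92.8 for Serpinf2 in duodenal tumor 1.

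In bulk tumor RNA a smaller share of a cell type and less RNA per cell cannot be told apart. Endothelial markers, which mark cells known to release Plat, summed over 7 genes to 972.1 to 1301 in duodenal and 934.8 to 1184 in cecal tumors, and 0 of 6 tested ones passed in limma (2 at an unadjusted p under 0.05, 0 with the replicate block). Fibroblast markers summed to 11606 to 14825 in duodenal and 16222 to 20578 in cecal tumors. Of 7 fibroblast genes 2 were higher in cecal tumors, against 5.70% of all tested genes. They were Col3a1 (log2 fold 0.73 ± 0.15 SE, limma adjusted p = 0.0173) and Thy1 (0.94 ± 0.22 SE, limma adjusted p = 0.0326). Thy1 was above the 40th percentile in only 1 duodenal tumor. The cecal tumors alone met the filter, so its direction may partly follow from it. Col3a1 lost its call without cecal tumor 1 or duodenal tumor 1 (highest adjusted p 0.0646), and Thy1 kept it only without duodenal tumor 1 (highest 0.105). Endocrine markers summed to 5014, 1045 and 9967 in duodenal tumors 1 to 3 and to 1062 to 1651 in cecal tumors. Of 10 nerve and glia markers 7 were below the 40th percentile on all arrays. The list's sum was 480.3 to 636.8 in duodenal and 330.2 to 376.3 in cecal tumors. The list did not move one way. The only tested gene, the glial S100b, had 119.8, 161.9 and 223.5 in the duodenal and 20.9, 21.2 and 14.6 in the cecal tumors, at least 1.70 times higher in duodenal tumors (limma adjusted p = 0.00138), but it passed the filter only through the duodenal tumors, so the direction largely follows from the filter. Of the untested ones the neuronal Prph had 28.9 to 72.7 in duodenal and 7.2 to 14.4 in cecal tumors, whereas Stmn2 had 16.7 to 36.1 and 42.3 to 78.8. The glial Sox10 had means of 55.8 in duodenal and 80.5 in cecal tumors, and Gfap 57.7 and 63.2. The last 2 lists were added after Plat and Serpini1 had been seen. The part of any of these cell types in the difference of Plat or Serpini1 was not tested.

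**Figure D2:**
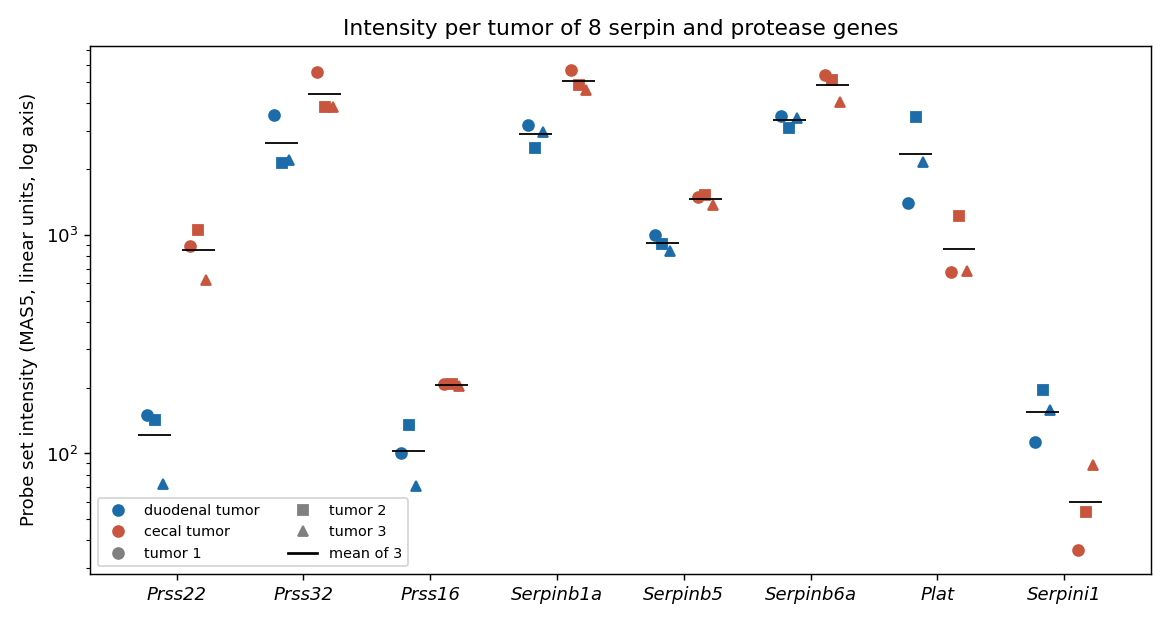
Intensity of 8 genes in each of the 6 tumors (y axis, log scale; blue duodenal, red cecal; the marker shape gives the tumor number and the bar the mean of 3). In each of the 8 genes the values of the sites are separate, and Plat is highest in tumor 2 of both sites.

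Membrane-anchored proteases and their Kunitz inhibitors were present at both sites, and 0 of the 6 tested genes passed in limma (2 at an unadjusted p under 0.05, 1 with the replicate block). St14, matriptase, a type II membrane protease that activates other proteases, had 1755, 1828 and 1672 in the duodenal and 1803, 2163 and 2170 in the cecal tumors. Its log2 fold was 0.22 with an interval from -0.06 to 0.49 (limma adjusted p = 0.332). Prss8, prostasin, a GPI-anchored partner of matriptase that also acts on the epithelial sodium channel, had 519.7, 321.8 and 624.1 in the duodenal and 275.8, 280.6 and 329.0 in the cecal tumors. Only duodenal tumor 2 lay within the cecal range, and the log2 fold of -0.65 ± 0.23 (SE) did not pass (limma adjusted p = 0.133, or 0.0672 with the replicate block). It did pass as lower in cecal tumors with array weights and without duodenal tumor 2.

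Spint1 encodes HAI-1, the Kunitz inhibitor of matriptase and of hepatocyte growth factor activator. It had 1603, 1138 and 1266 in the duodenal and 2099, 1723 and 1741 in the cecal tumors. The sites did not overlap, and the log2 fold was 0.48 ± 0.16 (SE; limma adjusted p = 0.108, or 0.0460 with the replicate block). Spint2, the related inhibitor HAI-2, had 6529, 6515 and 8528 in the duodenal and 7718, 7515 and 7892 in the cecal tumors. All cecal values lay inside the duodenal range, and the interval of the log2 fold ran from -0.17 to 0.39 (limma adjusted p = 0.646).

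Tmprss2, an androgen-regulated membrane protease of many epithelia, had 4068, 3639 and 4733 in the duodenal and 3967, 3761 and 4708 in the cecal tumors. Its log2 fold was 0.00 with an interval from -0.31 to 0.31 (limma adjusted p = 0.997), and its sign turned under some alternatives. Tmprss4 gave a log2 fold of -0.10 with an interval from -0.47 to 0.27. Enteropeptidase, Tmprss15, stayed between 12.8 and 29.4 on all 6 arrays and was too dim to be tested at either site. Tmprss3, Tmprss5, Tmprss11d and Tmprss13 were likewise too dim to be tested. Pan-epithelial markers summed to 54012 to 62582 in duodenal and 62686 to 64758 in cecal tumors. Of the 7, 1 was called (Cldn7, log2 fold 0.50 ± 0.09 SE, limma adjusted p = 0.0103), or 14.3% against 10.4% of all tested genes. The part of these markers in the values of this group was not tested.

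Of the other Prss genes, 2 of 5 tested were higher in cecal tumors and 0 lower, where 5.70% of all tested genes were higher and 4.75% lower. The 2 include Prss16, for which the cecal tumors alone met the filter. Prss22 (1420352_at), a secreted trypsin-like protease of epithelia known in human as tryptase epsilon, had 149.6, 142.4 and 72.3 in the duodenal and 892.5, 1055 and 622.3 in the cecal tumors. Every cecal value was several times the highest duodenal value, and the means were 121.4 ± 42.7 (SD, n = 3) and 856.7 ± 219 (n = 3). The log2 fold was 2.69 ± 0.28 (SE), or 6.45 times on the log2 scale of intensity plus 16 (limma adjusted p = 0.00108, or 9.73e-05 with the replicate block). Without each array in turn the fold ran from 2.40 to 2.90 and the adjusted p from 0.00196 to 0.00880.

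Prss32 is a trypsin-like protease gene that stands on chromosome 17 with Prss41, Prss21 and Prss22. In the order of protein-coding genes of the RefSeq table it lies next to Prss41 on one side and Prss21 on the other, and 6 genes separate Prss21 from Prss22. Its brightest probe set had 3539, 2128 and 2203 in the duodenal and 5544, 3842 and 3835 in the cecal tumors. The sites did not overlap and tumor 1 was highest in both, but the log2 fold of 0.76 ± 0.23 (SE) did not pass (limma adjusted p = 0.0770, or 0.00412 with the replicate block and 0.0244 without duodenal tumor 1). A second probe set, with 1803, 1370 and 1356 against 2926, 2542 and 2596, was higher in cecal tumors by 0.84 ± 0.14 (SE; limma adjusted p = 0.00986), and the mean of both probe sets passed at 0.0321.

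Prss41 and Prss21 were dim. Prss41 had 22.3, 15.3 and 18.9 in the duodenal and 46.5, 51.6 and 44.2 in the cecal tumors, and Prss21 had 14.8 to 32.3 over the 6 arrays, all below the 40th percentile. Neither was tested. With no filter on dim probe sets Prss41 passed as higher in cecal tumors.

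Prss16 (1448355_at) encodes a peptidase known from cortical epithelium of the thymus. It had 100.4, 135.7 and 71.3 in the duodenal and 207.8, 208.0 and 202.7 in the cecal tumors. The cecal values were nearly equal and all above the duodenal ones, and the log2 fold was 0.94 ± 0.22 (SE, limma adjusted p = 0.0335). Among the duodenal tumors only tumor 2 was above the 40th percentile. The 3 cecal tumors alone met the filter, so the direction may partly follow from it. The call held without duodenal tumor 2 (0.0154) and was lost without any other single array (0.0728 to 0.110) and with no filter (0.0590). Its gene lies on chromosome 13, far from the clade B serpins of that chromosome, with 139 protein-coding genes between it and Serpinb1a.

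Prss12, neurotrypsin, a protease known for cutting agrin at synapses, had 125.1, 184.3 and 181.8 in the duodenal and 99.9, 91.7 and 62.2 in the cecal tumors. The sites did not overlap, but the log2 fold of -0.84 ± 0.23 (SE) did not pass (limma adjusted p = 0.0630), although it did with no intensity trend. Prss23 had 2 tested probe sets with log2 folds of 0.16 and -0.21, neither of which passed. The pancreatic trypsinogens were dim. Prss2 was measured by 4 probe sets, the brightest with 65.2, 98 and 74.4 in the duodenal and 130.9, 195.8 and 79.8 in the cecal tumors, above the 40th percentile on only 2 arrays, and Prss3 stayed at or below 23.7. Among pancreatic acinar markers 8 of 12 were below the 40th percentile on all arrays, among them Cpa1, Cpb1, Ctrb1 and Cela2a at or below 36.9. The other 4 were bright enough to be tested. The elastase gene Cela1 had 3797, 2652 and 5597 in the duodenal and 1009, 1347 and 1571 in the cecal tumors and was lower in cecal tumors (log2 fold -1.56 ± 0.27 SE, limma adjusted p = 0.0102). Clps and Pnliprp1, cofactor and relative of pancreatic lipase, did not pass, with up to 792.0 for Clps in duodenal tumor 1 and 2611 for Pnliprp1 in duodenal tumor 2. In tumor 1 of both sites Pnliprp1 was below the 40th percentile (98.8 duodenal, 81.6 cecal). Zg16, which goblet cells make too, had 186.7 to 3906 in duodenal and 6668 to 12398 in cecal tumors (limma adjusted p = 0.117, or 0.0263 with the replicate block). The part of acinar cells in the values of the Prss genes was not tested.

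Of the 16 kallikrein genes only Klk1, tissue kallikrein, which releases kinins from kininogen, was bright enough to be tested. Its brightest probe set had 3956, 1280 and 2630 in the duodenal and 4542, 2736 and 3756 in the cecal tumors. Duodenal tumor 2 was lowest and the sites overlapped (log2 fold 0.60 ± 0.37 SE, limma adjusted p = 0.392, or 0.0684 with the replicate block). A second probe set followed the same order, with 3850, 1209 and 2481 against 4173, 2630 and 3547. Another had a different order, with 816.6, 1341 and 606.9 in the duodenal and 864.6, 2082 and 802.8 in the cecal tumors, so that tumor 2 was highest at both sites. The kallikrein genes share much sequence and probe sets with the suffix x_at can pick up related transcripts, so the value of Klk1 may not be that of 1 gene alone. The other 15 kallikrein genes stayed at or below 89.4 on every array, the highest being Klk8 in duodenal tumor 2.

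Of 3 Htra genes, secreted or mitochondrial proteases with a PDZ domain, 0 passed in limma (0 at an unadjusted p under 0.05 and 0 with the replicate block). Htra1, a secreted protease of matrix proteins, had 623.0, 1995 and 1267 in the duodenal and 1078, 1444 and 1142 in the cecal tumors. As with Plat, tumor 2 was highest at both sites, but the cecal values lay inside the duodenal range (log2 fold 0.06 ± 0.36 SE, limma adjusted p = 0.949). Without duodenal tumor 1 the log2 fold turned to -0.39 and without cecal tumor 2 to -0.07, neither of which passed. Htra2, a mitochondrial protease released during apoptosis, had 306.7, 292.2 and 275.7 in the duodenal and 241.2, 263.3 and 288.7 in the cecal tumors, an overlap with a log2 fold of -0.14 and an interval from -0.45 to 0.18. Htra3, related to Htra1, had a log2 fold of -0.36 (limma adjusted p = 0.440).

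Clade B serpins, most of which lack a signal peptide and work inside cells, had 3 of 4 tested genes higher in cecal tumors and 0 lower, where 5.70% of all tested genes were higher and 4.75% lower. Serpinb1a (1416318_at) inhibits the granule proteases neutrophil elastase, cathepsin G and proteinase 3. It had 3195, 2505 and 2950 in the duodenal and 5690, 4878 and 4615 in the cecal tumors. All cecal values were above all duodenal ones, with a log2 fold of 0.81 ± 0.13 (SE), or 1.75 times (limma adjusted p = 0.00804). A second probe set (1448301_s_at) had 396.2, 351.3 and 391.8 against 1023, 841.4 and 516.9 and was higher too (log2 fold 0.98 ± 0.23 SE, limma adjusted p = 0.0363). Without each array in turn the adjusted p of the brightest probe set ran from 0.0152 to 0.0357.

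Serpinb5 (1421752_a_at), maspin, is a serpin of epithelial cells that does not inhibit proteases by the serpin mechanism. It had 995.2, 908.2 and 843.9 in the duodenal and 1492, 1522 and 1371 in the cecal tumors, without overlap. The log2 fold was 0.67 ± 0.12 (SE; limma adjusted p = 0.0124), and the call was lost without cecal tumor 2 (0.0619). The other 2 probe sets of Serpinb5 overlapped between the sites and gave log2 folds of 0.28 (limma adjusted p = 0.308) and 0.15 (0.620), and the mean of the 3 probe sets was 0.37 and did not pass (0.116).

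Serpinb6a (1450138_a_at), whose human counterpart is an intracellular inhibitor of cathepsin G, had 3511, 3095 and 3428 in the duodenal and 5385, 5135 and 4063 in the cecal tumors. The sites did not overlap and cecal tumor 3 was nearest to the duodenal values. The log2 fold of 0.53 ± 0.13 (SE) passed (limma adjusted p = 0.0434). The call held without cecal tumor 3 (0.0194) and was lost without any other single array (0.0811 to 0.159), with quantile normalization (0.0542), with no filter (0.0684) and with no intensity trend (0.0755). Serpinb9, the inhibitor of granzyme B, had 202.9, 150.8 and 181.4 in the duodenal and 138.0, 124.5 and 174.5 in the cecal tumors, which overlap (log2 fold -0.27 ± 0.19 SE, limma adjusted p = 0.449).

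Serpinb1a, Serpinb9 and Serpinb6a lie in a cluster on chromosome 13 with Serpinb6b, Serpinb9b, Serpinb1b, Serpinb9c, Serpinb9g and Serpinb6c. Each of the last 6 was too dim to be tested. The clade B cluster on chromosome 1 holds Serpinb5, Serpinb11, Serpinb7, Serpinb2 and Serpinb8, and only Serpinb5 was tested. Serpinb8 had 101.1, 73.7 and 105.2 in the duodenal and 30.9, 8.6 and 12.9 in the cecal tumors, and Serpinb11 had 82.5, 194.9 and 147.3 against 47.2, 60.8 and 49.2. Both were higher in every duodenal than in every cecal tumor, the other way from Serpinb5, but each was above the 40th percentile on only 2 arrays and so was not tested. With no filter on dim probe sets Serpinb8 passed as lower in cecal tumors.

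Markers of the cells in which clade B serpins are known were compared between the sites. Neutrophil markers, the cells of the proteases that Serpinb1a inhibits, summed over 8 genes to 207.2 to 496.2 in duodenal and 337.1 to 1736 in cecal tumors. The highest sum was that of cecal tumor 3, mostly from S100a8 (825.3) and S100a9 (656.7), neither of which passed (limma adjusted p = 0.241 and 0.224). The other 6 of the 8 markers were below the 40th percentile on all arrays. Macrophage markers summed to 6774 to 8423 in duodenal and 8278 to 10071 in cecal tumors, with 0 of 7 called in limma (2 at an unadjusted p under 0.05, 0 with the replicate block). Squamous markers, among them Krt5 and Krt14, summed to 443.6 to 1350 in duodenal and 293.4 to 545.6 in cecal tumors, with 0 of 2 tested genes called in limma (0 at an unadjusted p under 0.05 and 0 with the replicate block). Cytotoxic lymphocyte markers summed to 218.6 to 403.7 and 294.6 to 459.1, with 6 of 9 below the 40th percentile on all arrays. The part of these cells in the values was not tested.

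**Figure D3:**
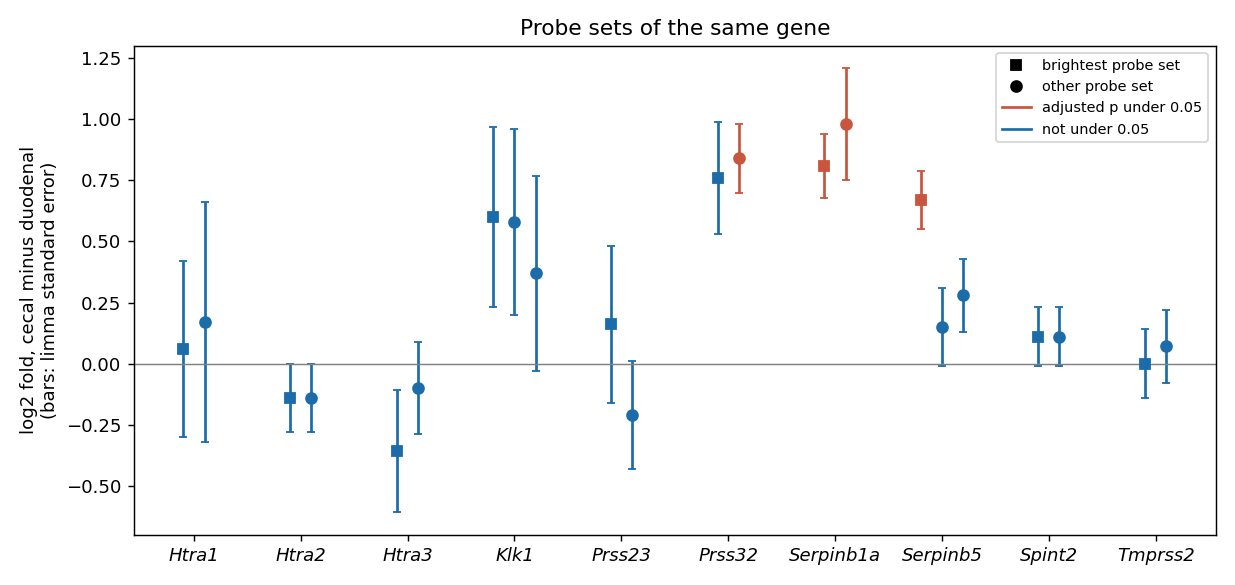
Log2 fold, cecal minus duodenal (y axis; bars are the limma standard error), of the 22 probe sets of the 10 genes with more than 1 tested probe set. Both probe sets of Serpinb1a passed, 1 of 2 passed for Prss32 and 1 of 3 for Serpinb5, and 7 genes had no passing probe set.

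Among clade A serpins, secreted inhibitors made mostly by the liver, only Serpina3n was tested. It is an acute-phase inhibitor related to human alpha-1-antichymotrypsin. It had 1142, 715.4 and 1202 in the duodenal and 1518, 1558 and 3004 in the cecal tumors. The sites did not overlap and cecal tumor 3 stood well above the rest. The log2 fold was 0.94 ± 0.30 (SE; limma adjusted p = 0.0927, or 0.0189 with the replicate block), and it passed in none of the 6 fits without 1 array (0.123 to 0.201). The other 6 clade A genes of this group were dim, and 5 of 8 hepatocyte markers were below the 40th percentile on all arrays. The hepatocyte gene Alb had 54.9, 2168 and 210.5 in the duodenal and 45.8, 199.2 and 102.0 in the cecal tumors, so that duodenal tumor 2 stood apart. Ttr, the other tested hepatocyte marker, had 1837.8, 1940.8 and 3450.5 against 1181.5, 2179.3 and 1112.6 and did not pass (limma adjusted p = 0.227). The brighter probe set of Serpina1b, too dim to be tested, had 49.1, 30.4 and 54.6 in the duodenal and 74.1, 68.9 and 175.0 in the cecal tumors. The part of liver cells in these values was not tested.

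Of the 3 other serpins tested 1 was lower in cecal tumors, where 4.75% of all tested genes were lower. It was Serpini1, given above, which was tested only through the duodenal tumors. Serping1, the C1 inhibitor of complement and contact activation, had 1255, 2315 and 2119 in the duodenal and 1766, 2284 and 2284 in the cecal tumors, an overlap with a log2 fold of 0.19 and an interval from -0.34 to 0.72 (limma adjusted p = 0.681). Serpinf1, pigment epithelium-derived factor, is a secreted serpin that does not inhibit proteases and is made by stromal cells. It had 135.9, 117.5 and 109.3 in the duodenal and 205.8, 183.5 and 185.3 in the cecal tumors. The sites did not overlap, and the log2 fold of 0.60 ± 0.16 (SE) narrowly missed the threshold (limma adjusted p = 0.0564). It passed with quantile normalization (limma adjusted p = 0.0443), median centring (0.0458) and no intensity trend (0.0316). It also passed in the fit on the means of tested probe sets (0.0479), where its value was still that of its 1 tested probe set. The fibroblast marker sum given above was higher in the cecal tumors too, and its part in the value of Serpinf1 was not tested.

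**Figure D4:**
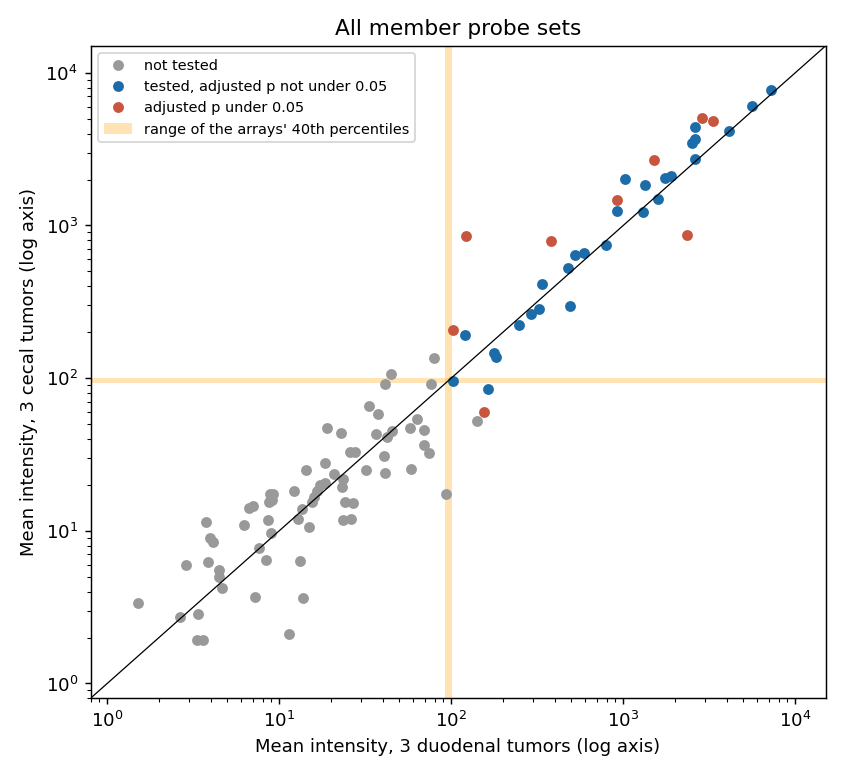
Mean intensity of each of the 107 probe sets in 3 duodenal (x axis) and 3 cecal tumors (y axis), both on log scales; the line marks equal means and the shaded bands the range of the arrays' 40th percentiles (92.4 to 100.6). Most probe sets that were not tested lie below both bands, and Prss22 and Plat lie furthest from the line among those that passed.

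The remaining 55 genes had no probe set bright enough to be tested. Of these, 50 were below the 40th percentile on all 6 arrays in their brightest probe set, 2 were above it on 1 array and 3 on 2 arrays. The 3 were Prss2, Serpinb11 and Serpinb8. No array value of an untested gene exceeded 195.8. For 8 of the 55 (14.5%) the sites did not overlap, 5 higher in duodenal tumors and 3 in cecal tumors, against 16.5% of all 4264 untested genes. These are values in the dim range and carry no test.

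Receptors, substrates and cofactors of these proteases were taken as a list of 27 genes, of which 24 were on the array and 16 were tested. In cecal tumors 2 were higher and 0 lower (9 at an unadjusted p under 0.05, 4 with the replicate block), and the median log2 fold was 0.34. The share called, 12.5%, is near the 10.4% of all tested genes and is no result about the list. The 2 encode the subunits of the annexin A2 complex, a cell-surface cofactor on which Plat activates plasminogen. S100a10 had 4197, 4382 and 4143 in the duodenal and 7769, 6838 and 7031 in the cecal tumors (log2 fold 0.76 ± 0.10 SE, limma adjusted p = 0.00248, and passing in 6 of 6 fits without 1 array). Anxa2 had 8851, 7925 and 9461 in the duodenal and 12287, 11926 and 12111 in the cecal tumors (0.47 ± 0.09 SE, limma adjusted p = 0.0182). This call held without duodenal tumor 3 (0.0112) and was lost without any other single array, where the highest adjusted p was 0.0802. Epcam, a substrate of matriptase, had a log2 fold of 0.29 ± 0.09 (SE) and did not pass (limma adjusted p = 0.0920), and plasminogen itself (Plg) did not exceed 27.2.

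Inhibitors of other families were taken as a list of 29 genes, of which 22 were on the array and 12 were tested. In cecal tumors 3 were lower and 1 was higher, with a median log2 fold of 0.05. The share called was 33.3%, against 10.4% of all tested genes, but it counts A2m, which was tested only through the duodenal tumors. It also counts Wfdc15b, for which the duodenal tumors alone met the filter. The higher one, Spink4, a Kazal-type protein of goblet cells, had 4417, 2404 and 3508 in the duodenal and 12727, 11685 and 13407 in the cecal tumors (log2 fold 1.91 ± 0.20 SE, limma adjusted p = 0.00108). A2m, a macroglobulin that traps proteases of all classes, had 2903, 537.4 and 752.0 in the duodenal and 8.9, 4.4 and 15.1 in the cecal tumors. It was at least 11.0 times higher in duodenal tumors, and since it was below the 40th percentile in all cecal tumors, the direction largely follows from the filter (limma adjusted p = 0.000878). Wfdc18, a secreted protein with a whey acidic protein domain, had 8087, 7619 and 12615 in the duodenal and 1973, 3602 and 5151 in the cecal tumors (log2 fold -1.46 ± 0.33 SE, limma adjusted p = 0.0307). Wfdc15b, of the same family, had 190.5, 375.0 and 379.4 against 47.6, 150.0 and 70.1 (-1.71 ± 0.39 SE, limma adjusted p = 0.0295). It was above the 40th percentile in only 1 cecal tumor, so its direction may partly follow from the filter. The calls of Wfdc18 and Wfdc15b each held in 2 of 6 fits without 1 array, with highest adjusted p values of 0.0932 and 0.0996.

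The labelled sites were checked against marker genes of each. The 6 duodenal and pyloric genes summed to 25281 to 37767 in duodenal and 587.8 to 735.8 in cecal tumors, and the 6 cecal and colonic genes to 405.0 to 958.2 and 19205 to 27450. The brightest duodenal and pyloric genes were Gkn1, with 12715, 12496 and 17057 in duodenal tumors 1 to 3, and Tff1, with 8241, 9276 and 11240. Fabp1 had 4236, 683.8 and 4630. The list mixes duodenal and pyloric genes, so its sum does not tell these tissues apart. In all 12 marker genes the sites did not overlap and the site of the label was higher. Of these, 9 were below the 40th percentile on every array of the other site and so were tested only through the site where they are high. The other 3 were Tff1, Cdx2 and Retnlb, each called in limma, and the call of Retnlb did not hold when cecal tumor 1 was left out (0.0731). Mast cell markers summed to 9307 in duodenal tumor 2 and to 2032 and 2373 in the other duodenal tumors, and to 2193 to 6622 in cecal tumors. The arrays' median intensities ran from 164.6 to 181.8.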

How the data were processed

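Per the labels, RNA of each of 6 tumors was hybridised to 1 Affymetrix array. The authors deposited linear probe set intensities, for which the submitters' processing notes name MAS5. The sources used here do not state its version, scaling target or detection calls. The trimmed mean intensity was 499.1 to 499.9 on every array, so no scaling was added. Of 22690 probe sets, 20380 named 1 gene, 691 several and 1555 none, and 64 controls were left out. All 80 member genes were found in RefSeq (GRCm38.p6) and 0 symbols changed.

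The log2 of intensity plus 16, a scale on which changes of dim genes are understated, was fitted with limma 3.58.1 (R 4.3.3; lmFit, eBayes with an intensity trend) on all 13866 probe sets above their array's 40th percentile on at least 3 arrays. Tests were two-sided, with Benjamini-Hochberg adjustment over those probe sets, a threshold of 0.05 and folds as cecal minus duodenal. The p-values measure the spread between tumors of different mice. The procedure was tested on simulated data. Figures used Python 3.11.15 and matplotlib 3.10.9.

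Named were members with a tested probe set that passed, members without overlap and an absolute log2 fold of at least 1, and the 2 brightest tested of each role group, with the passing and the 2 brightest genes of each partner list. Other members were named for completeness after their values were seen. Members and lists were chosen with earlier results of these data known.

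Replicate numbers 1 to 3 recur at both sites. Deviations from the site means had correlations of 0.274, 0.299 and 0.203 for same-numbered tumors and of -0.2 to -0.026 for all other pairs, every same-numbered pair being above 0.1. Only the data show this pairing, since no label gives a litter or batch. The reported counts come from the fit without the number, and the fit with the replicate block is an alternative whose values are given where it changes a call. Other alternatives covered the offset, filter, normalization, variance model, array weights, probe set choice, threshold and each array left out.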

Additional observations from a re-analysis of the deposited data

How the results depend on the processing

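The counts of 5 genes higher and 2 lower in cecal tumors were recomputed under each alternative. The higher count was 2 at an adjusted p under 0.01 and 8 with the replicate block, 2 to 4 without each array in turn, and 4 to 6 under the others. It was 3 without cecal tumor 1, 2 without cecal tumor 2 and 3 without duodenal tumor 3. The lower count was 0 at an adjusted p under 0.01, 0 to 1 without each array, 2 with the replicate block, and 1 with the 60th percentile as filter, with no filter and with quantile normalization. Equal counts did not always hold the same genes. Array weights called Prss8 in place of Plat, no intensity trend called Prss12 in place of Plat and Serpinf1 in place of Serpinb6a, and the 1 lower gene with no filter was Serpinb8, shared with neither. The block removed 0 of the 7 calls. Counting a gene when any probe set passes, chosen after seeing the data, gave 6 higher and 2 lower. Prss22 and Serpinb1a were called under all 17 alternatives.

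Among the 17 genes named by rule, 234 values kept their sign and side of the threshold, 35 kept the sign and lost the call, 8 gained a call and 8 changed sign, none of them a call. Tmprss2 turned to -0.04 with array weights and -0.06 with quantile normalization, and ran from -0.09 to 0.10 without each array. Htra1 ran from -0.39 to 0.44 and Serping1 from -0.08 to 0.36 without each array, each lowest without duodenal tumor 1. The causes were not tested. Signal over background limits the 55 dim genes.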

Other observations

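Of 6 probe sets that name several genes and match the families, and are thus no members, 1 was tested. It names Klk1b9 and Klk1b22, kallikreins related to Klk1, and had 274.7, 92.3 and 159.9 in the duodenal and 231.1, 153.1 and 246.3 in the cecal tumors (log2 fold 0.33 ± 0.35 SE, limma adjusted p = 0.633). Duodenal tumor 2 was lowest and duodenal tumor 1 highest, the same order as in the brightest Klk1 probe set among the duodenal tumors.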
